A study of Mus musculus with 8 samples.

Results

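The compound EnPGC-1 was set against SGC-CBP30, which blocks the bromodomains of CBP and p300, in activated mouse CD8+ T cells. The comparison takes 4 of the 8 RNA-seq libraries of the series, 2 with EnPGC-1 and 2 with SGC-CBP30, chosen by their labels, and covers the 16750 of 45777 listed genes that passed a filter on low counts. All 4 libraries came from primary CD8+ T cells of C57BL/6 mice, taken from lymph node and spleen, stimulated with antibodies against CD3 and CD28 and exposed to the compound for 48 hours. The other groups, DMSO (the vehicle) and Ctrl PIP, had the same stimulation and time, with 2 libraries each. Their values are given to place the levels. Their libraries also entered the filter, the scaling and the estimate of spread in the main test, and so its intervals and p-values. The labels call EnPGC-1 a PIP, the usual short form of pyrrole-imidazole polyamide, and list SGC-CBP30 under the same word, although it is known as a bromodomain inhibitor. They give no doses, so the 2 compounds share a time and not a known dose, and 1 pair of compounds was compared. The age and sex of the animals are not stated, nor whether each replicate was its own animal or culture, so a p-value here reflects the spread among these libraries alone, and that spread may be technical.

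CD8+ T cells kill infected and malignant cells with perforin and granzymes released from granules, and they draw other immune cells with chemokines. CBP and p300 acetylate histones at enhancers and promoters and carry a bromodomain, a pocket that reads acetylated lysine. The study that produced these libraries concerns the induction of mitochondria in T cells, for which PGC-1 alpha (gene Ppargc1a) is a known coactivator.

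The EnPGC-1 libraries lay further from each other than from the SGC-CBP30 libraries. Across genes, log2 CPM (a gene's counts per unit of TMM-scaled library size) correlated at 0.929 between the EnPGC-1 libraries and at 0.982 between the SGC-CBP30 libraries. EnPGC-1 replicate 2 correlated with the SGC-CBP30 libraries at 0.972 and 0.974, and EnPGC-1 replicate 1 at 0.957 and 0.942. Relative to the mean of all 8 libraries, longer transcripts were higher in EnPGC-1 replicate 1 and lower in EnPGC-1 replicate 2 (Spearman rho with transcript length 0.49 and -0.52 across 9299 genes), and the SGC-CBP30 libraries had 0.54 and 0.48. Total counts were 38890043 and 55491261 with EnPGC-1, against 53654673 and 52795446 with SGC-CBP30. The defining CD8+ T cell markers were present in all 4 libraries: Cd8a had 1189 and 1241 CPM with EnPGC-1, against 1071 and 924 CPM with SGC-CBP30, and Cd8b1 had 884 and 1114 CPM against 803 and 676 CPM.

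No gene passed the adjusted threshold between the compounds. With edgeR's quasi-likelihood test on all 8 libraries and Benjamini-Hochberg adjustment over 16750 genes, 0 genes were called higher with EnPGC-1 (0%) and 0 lower (0%), and every adjusted p was 1. At an unadjusted p under 0.05, 184 genes were higher (1.10%) and 156 were lower (0.931%). DESeq2's Wald test, which gave 21140 genes an adjusted p, called 15 genes higher (0.0710%) and 2 lower (0.00946%). Both EnPGC-1 libraries lay above both SGC-CBP30 libraries for 2209 genes (13.2%) and below both for 2455 genes (14.7%). The log2 fold change, EnPGC-1 over SGC-CBP30, was above 0 for 8852 genes (52.8%) and below 0 for 7883 (47.1%), with a median of 0.02. For the median gene the 95% interval extended 0.997 log2 units above and below its estimate. An estimate under about that size was thus not resolved from 0 for a typical gene. That width is unadjusted, and it is not a size above which differences were detectable. The coefficient of variation was 0.546 between the EnPGC-1 libraries and 0.154 between the SGC-CBP30 libraries. An exact permutation test of 2 libraries against 2 cannot go below p = 0.333. The genes described below were ranked by the same test or belong to lists. For those ranked by p, groups that did not overlap were a condition, so their separation is not a finding of its own. Below, intervals are 95% intervals of log2 fold changes from the edgeR fit, an interval that leaves out 0 corresponds to an unadjusted p under 0.05, and none of these genes passed the adjusted threshold in edgeR.

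**Figure D1:**
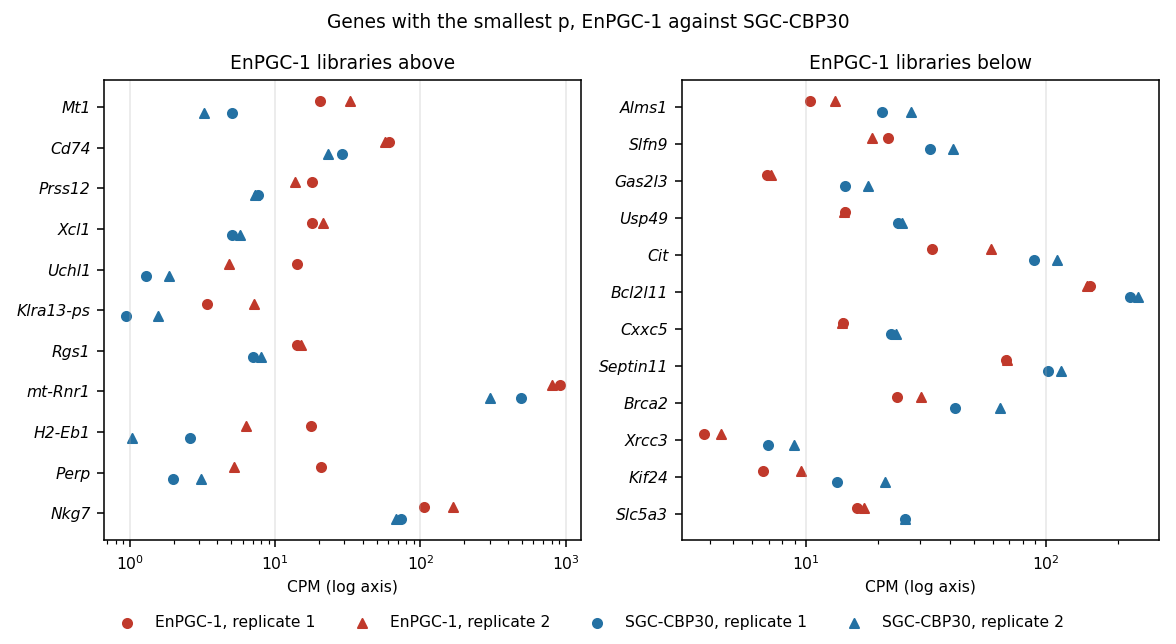
Levels, in CPM on a log axis, of genes with the smallest p, 11 above and 12 below, among genes whose higher group reached 5 CPM and whose groups did not overlap. Each point is 1 library: red EnPGC-1, blue SGC-CBP30, circles replicate 1 and triangles replicate 2. The EnPGC-1 points lie close together for Rgs1, Bcl2l11 and Septin11 and far apart for Uchl1, H2-Eb1 and Perp.

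Chemokines and their receptors were on balance higher with EnPGC-1. Xcl1 (chr1:164931644-164935522, GRCm38.p6), the chemokine that attracts cross-presenting dendritic cells, had 17.8 and 21.3 CPM with EnPGC-1, against 5.06 and 5.69 CPM with SGC-CBP30. Its log2 fold change was 1.86 (SE 0.41, interval 0.87 to 2.85; DESeq2 adjusted p = 0.035). The EnPGC-1 libraries lay within the range of the DMSO and Ctrl PIP libraries for Xcl1 (15 and 33.7 CPM, and 21.5 and 15.2 CPM), and the SGC-CBP30 libraries lay below all of them. Of the 22 of 24 listed chemokines and receptors that were tested, 19 were above 0 and 3 below, and 9 had both EnPGC-1 libraries above both SGC-CBP30 libraries while 0 had the reverse, beside 13.2% and 14.7% of all genes. The list's median log2 fold change was 0.71, beside 0.02 over all genes. It was 0.22 without EnPGC-1 replicate 1 and 1.01 without EnPGC-1 replicate 2, so its size depended on which library was used. The chemokine Ccl9, another of the 3 members with an interval above 0, was low, with 2.26 and 0.371 CPM against 0.184 and 0.168 CPM, and its log2 fold change of 2.88 was 1.07 without EnPGC-1 replicate 1. Cxcr3 and Ccr7, receptors for homing to inflamed tissue and to lymph nodes, were among the most abundant and had log2 fold changes of 0.15 (interval -0.43 to 0.74) and -0.17 (interval -1.10 to 0.76). Both were picked after their values were seen.

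The granule genes of killing were also higher on balance. Gzmb (chr14:56258836-56262334), granzyme B, had 79.7 and 83.4 CPM with EnPGC-1, against 36.4 and 41.6 CPM with SGC-CBP30. Both EnPGC-1 libraries were above both SGC-CBP30 libraries, with a log2 fold change of 1.06 (SE 0.40, interval 0.11 to 2.02). All 4 values lay below DMSO (219.9 and 490.4 CPM) and Ctrl PIP (272 and 182 CPM). Nkg7 (chr7:43437138-43438246), a granule membrane protein of cytotoxic cells, had 106 and 167 CPM with EnPGC-1, against 73.8 and 67.8 CPM with SGC-CBP30 (log2 fold change 0.95, SE 0.27, interval 0.30 to 1.60; 0.58 without EnPGC-1 replicate 2). The EnPGC-1 values differed more between replicates than the SGC-CBP30 values. Gzmm, granzyme M, had 2.38 and 4.27 CPM against 1.34 and 1.68 CPM (log2 fold change 1.14, interval 0.20 to 2.08; 0.65 without EnPGC-1 replicate 2), and Ctsw, a granule protease of cytotoxic cells, had 138 and 174 CPM against 115 and 91.7 CPM (0.60, interval 0.06 to 1.13). Prf1, perforin, overlapped between the compounds, with 32.5 and 21.1 CPM with EnPGC-1 and 23.3 and 15.1 CPM with SGC-CBP30 (0.49, interval -0.25 to 1.22; 0.14 without EnPGC-1 replicate 1). Of the 14 of 18 listed granule genes that were tested, 11 were above 0 and 3 below, and 4 had an interval above 0 while 0 had one below, beside 1.10% and 0.931% of all genes. The median was 0.39, and it was 0.44 and 0.37 without EnPGC-1 replicate 1 or 2, but 0.59 and 0.20 without SGC-CBP30 replicate 1 or 2. Lamp1, the lysosomal membrane protein used to mark degranulation, had 162 and 161 CPM against 171 and 154 CPM, and its log2 fold change was -0.01 (interval -0.43 to 0.42).

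**Figure D2:**
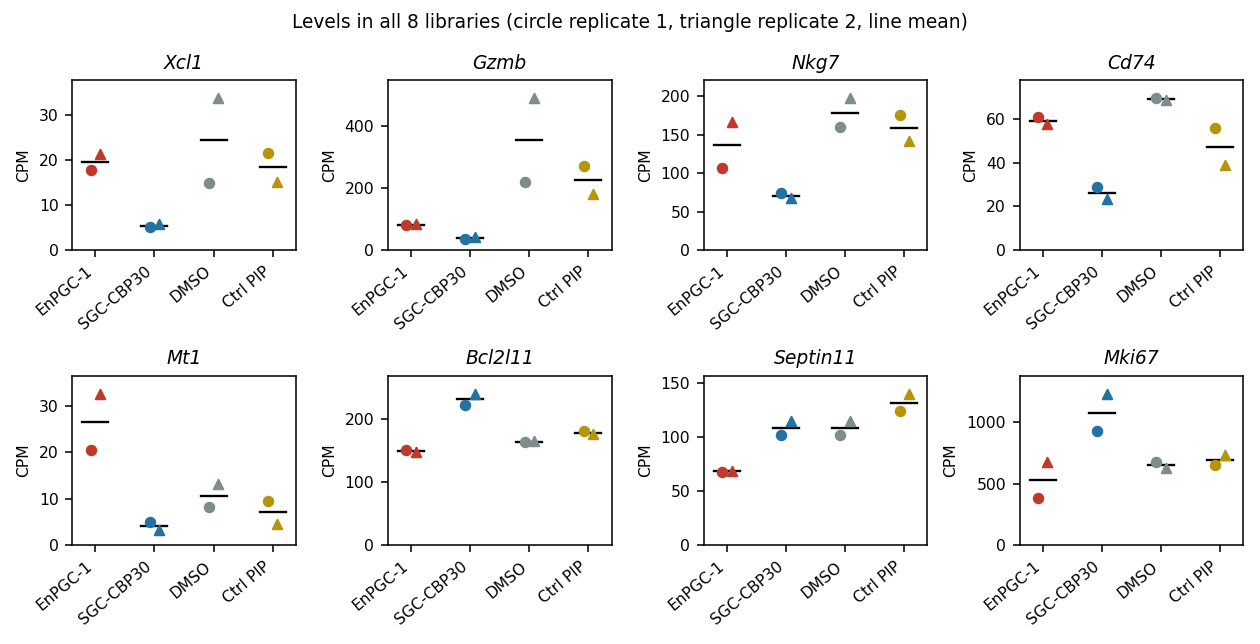
Levels in CPM, on axes that start at 0, of 8 genes in all 8 libraries, with EnPGC-1 and SGC-CBP30 left of DMSO and Ctrl PIP. Circles are replicate 1, triangles replicate 2 and lines the mean of 2 libraries. For Gzmb both compounds lie below DMSO and Ctrl PIP, for Xcl1, Cd74 and Nkg7 SGC-CBP30 lies below all 6 other libraries, for Mt1 EnPGC-1 lies above all others and for Septin11 below all others, and for Bcl2l11 and Mki67 SGC-CBP30 lies above all others.

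Receptors of the natural killer type were split by library. Klrd1 (chr6:129588092-129598775), the CD94 chain of an inhibitory receptor that activated CD8+ T cells share with natural killer cells, had 202 and 250.3 CPM with EnPGC-1, against 123 and 138 CPM with SGC-CBP30 (log2 fold change 0.79, SE 0.26, interval 0.16 to 1.43). The groups did not overlap. Klra13-ps, annotated as a pseudogene of the Ly49 receptor family, had 3.42 and 7.15 CPM against 0.939 and 1.57 CPM (2.08, SE 0.49; DESeq2 adjusted p = 0.049). Genes of this family are near-identical, and reads may be shared among them. Of 19 receptors tested 15 were above 0, with a median of 0.38 that was 0.57 without EnPGC-1 replicate 1 and 0.02 without replicate 2, and 0.15 and 0.65 without SGC-CBP30 replicate 1 or 2. Klrk1, the activating receptor NKG2D, overlapped at 28.2 and 61.0 CPM with EnPGC-1 and 25.7 and 35.5 CPM with SGC-CBP30. Cd244a, the receptor 2B4, was counted at 0.413 and 0.0557 CPM with EnPGC-1 and at 0 in both SGC-CBP30 libraries, and Ncr1 and Klra8 were also at 0 in both, so no fold is given for them here.

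Cytokine genes had a median of 0.43, with 9 of 12 tested members (19 listed) above 0 and none with an interval that left out 0. The median was 0.27 without EnPGC-1 replicate 1, 0.20 without SGC-CBP30 replicate 1, and 0.30 and 0.35 without the other replicate of each. Ifng, interferon gamma, had 5.71 and 3.36 CPM with EnPGC-1, against 2.76 and 2.28 CPM with SGC-CBP30 (log2 fold change 0.85, interval -0.11 to 1.80). The groups were apart, and all 4 values lay below DMSO (12.6 and 8.02 CPM) and Ctrl PIP (6.36 and 9.15 CPM). Osm, oncostatin M, had 7.55 and 5.98 CPM against 4.82 and 3.53 CPM (0.70, interval -0.01 to 1.40). Among 15 inhibitory receptors the median was 0.20. Pdcd1, the receptor PD-1, had 16.4 and 24.1 CPM against 20.5 and 21.8 CPM (-0.07, interval -0.93 to 0.80), and Cd160 had 15.1 and 22.4 CPM against 12.2 and 12.9 CPM (0.58, interval -0.15 to 1.31). The SGC-CBP30 values of Pdcd1 lay between the EnPGC-1 values.

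Genes of quiescence and lymphoid homing were slightly higher as a list, with 19 of 23 above 0, 8 with both EnPGC-1 libraries above and 0 with both below (13.2% and 14.7% of all genes), and a median of 0.27. Ly6c2, a surface marker of memory-type CD8+ T cells, had 125 and 159.5 CPM with EnPGC-1, against 87.8 and 59.3 CPM with SGC-CBP30 (log2 fold change 0.95, interval -0.10 to 2.01). Its near-identical neighbour Ly6c1 had 10.1 and 12.2 CPM against 6.98 and 4.52 CPM, and both genes stood far higher in DMSO (319 and 588 CPM for Ly6c2). Klf2, the transcription factor of naive and homing T cells, had 369 and 312 CPM against 275 and 273 CPM (0.31, interval -0.17 to 0.80). Klf2 in both compounds lay above DMSO (241 and 194 CPM) and Ctrl PIP (206 and 218 CPM). Of 33 interferon gamma response and MHC class I genes, 30 were above 0, 11 had both EnPGC-1 libraries above and 2 both below (13.2% and 14.7% of all genes), and the median was 0.23 (0.16 and 0.37 without EnPGC-1 replicate 1 or 2, 0.38 and 0.15 without SGC-CBP30 replicate 1 or 2). Igtp, an interferon-induced GTPase, had 836 and 833 CPM against 680.3 and 615 CPM (0.37, interval -0.16 to 0.89). Of 40 type I interferon-stimulated genes 25 were above 0 and 15 below, with a median of 0.07. That median turned on single libraries: it was -0.19 and 0.23 without EnPGC-1 replicate 1 or 2, 0.58 without SGC-CBP30 replicate 1 (37 above, 3 below) and -0.22 without SGC-CBP30 replicate 2 (11 above, 29 below).

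MHC class II genes and B cell markers formed the list with the most low-p members, 11 of 20 above against 1.10% of all genes. The lists were chosen with earlier results of these data known, so that count is a description only. In 17 members both EnPGC-1 libraries lay above both SGC-CBP30 libraries and in 1 both lay below, beside 13.2% and 14.7% of all genes. Cd74, the invariant chain that escorts MHC class II molecules, had 60.9 and 57.4 CPM with EnPGC-1, against 28.7 and 23.2 CPM with SGC-CBP30. Its log2 fold change was 1.19 (SE 0.23, interval 0.63 to 1.74), with a DESeq2 adjusted p = 0.028. DMSO had 69.3 and 68.6 CPM. H2-Eb1, a class II beta chain, had 17.6 and 6.31 CPM against 2.61 and 1.04 CPM (2.70, SE 0.73), and H2-Aa, a class II alpha chain, had 16.2 and 7.28 CPM against 2.80 and 1.21 CPM (2.55, SE 0.73). The genes of B cell identity lay the same way at lower levels. Cd22, an inhibitory B cell receptor, had 6.58 and 3.36 CPM against 1.27 and 0.709 CPM (2.32, SE 0.53; DESeq2 adjusted p = 0.039). Cd79a, a signalling chain of the B cell receptor, had 9.33 and 7.11 CPM against 2.32 and 0.709 CPM. The list's median was 2.22, and it was 1.5 without EnPGC-1 replicate 1 and 2.39 without replicate 2. Against DMSO the median was 0.03 with EnPGC-1 and -2.17 with SGC-CBP30. Against Ctrl PIP it was 1.47 with EnPGC-1 (20 of 20 above 0) and -0.85 with SGC-CBP30 (16 of 20 below 0). Each pair of values shares its control libraries. The exceptions were Ighm, the immunoglobulin mu heavy chain gene, with 776 and 822 CPM against 850.4 and 774 CPM (-0.02, interval -0.65 to 0.61), Ighd, with 9.96 and 7.67 CPM against 11.0 and 10.2 CPM, and Vpreb3. In bulk RNA, fewer cells of a type and less RNA per cell cannot be told apart, so these values do not say whether B cells or class II transcription within T cells differed. The summed level of the list was 973 and 978 CPM with EnPGC-1, against 934 and 839.8 CPM with SGC-CBP30, and Ighm made up most of it.

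Because class II genes are known to share a regulatory module whose Y box has the core CTGATTGG, the promoters of both class II genes above are shown, from 250 bases before to 50 bases after the gene start (RefSeq, GRCm38.p6), with matches to CTGATTGG on either strand in capitals. The H2-Aa window is chr17:34287774-34288073 on the minus strand and the H2-Eb1 window chr17:34305617-34305916 on the plus strand. Each holds 1 match, and 4.10% of 32851 promoters of this length hold at least 1. A match is a description of the letters and not evidence of binding.
H2-Aa: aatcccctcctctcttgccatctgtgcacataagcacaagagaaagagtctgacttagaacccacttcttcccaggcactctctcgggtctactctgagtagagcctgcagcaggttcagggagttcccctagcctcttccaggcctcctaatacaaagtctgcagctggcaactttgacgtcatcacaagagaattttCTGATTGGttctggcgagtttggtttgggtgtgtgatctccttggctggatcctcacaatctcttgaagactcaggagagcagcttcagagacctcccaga
H2-Eb1: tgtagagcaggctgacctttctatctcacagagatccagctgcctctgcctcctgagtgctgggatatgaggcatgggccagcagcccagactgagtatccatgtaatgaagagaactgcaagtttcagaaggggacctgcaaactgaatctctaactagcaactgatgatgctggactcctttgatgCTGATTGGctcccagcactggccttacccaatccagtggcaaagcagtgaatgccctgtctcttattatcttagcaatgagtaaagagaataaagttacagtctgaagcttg

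Markers of other cells were given for the same libraries. The haemoglobin genes were low and higher with EnPGC-1: Hba-a1 had 2.72 and 3.60 CPM, against 0.736 and 0.410 CPM with SGC-CBP30 (log2 fold change 2.46, SE 0.65), and Hbb-bs had 4.44 and 6.76 CPM against 1.44 and 0.728 CPM (2.37, SE 0.68). All 11 erythroid and platelet markers tested (13 listed) were above 0, and their summed level was 95.4 and 26.8 CPM against 26.4 and 10.1 CPM. The list's median of 2.39 was 0.23 without EnPGC-1 replicate 1 and 2.24 without replicate 2. Globin copies are near-identical, so their separate values are uncertain. Myeloid and dendritic markers summed to 91.3 and 10.4 CPM with EnPGC-1, against 14.6 and 13.5 CPM with SGC-CBP30, so EnPGC-1 replicate 1 stood apart. Mpo, myeloperoxidase of granulocyte precursors, gave 44.3 and 0 CPM against 1.2 and 1.53 CPM. Adgre1 and Cd14, markers of macrophages and monocytes, were at 0 in both SGC-CBP30 libraries. The list's median log2 fold change was 3.04 over the 15 of 20 members tested, and -2.23 without EnPGC-1 replicate 1. Natural killer cell markers summed to 20.6 and 4.88 CPM against 4.56 and 6.19 CPM. Foxp3, the transcription factor of regulatory T cells, had 13.8 and 1.62 CPM against 3.55 and 2.11 CPM (1.45, interval -2.22 to 5.11), and Cd4 had 10.4 and 6.26 CPM against 7.09 and 8.10 CPM. The part that these cell types play in the differences above was not tested.

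The gene with the smallest p of all those ranked was Mt1 (chr8:94178883-94180327), a metallothionein, a small protein that binds zinc and copper and whose gene is induced by metals. It had 20.4 and 32.5 CPM with EnPGC-1, against 5.01 and 3.26 CPM with SGC-CBP30. Its log2 fold change was 2.68 (SE 0.50, interval 1.49 to 3.87), with a DESeq2 adjusted p = 0.0007. The EnPGC-1 values also lay above DMSO (8.18 and 13.2 CPM) and Ctrl PIP (9.60 and 4.59 CPM). Mt2 (chr8:94172618-94173567), its neighbour with the same role, had 19.6 and 26.8 CPM against 4.21 and 1.40 CPM (3.05, SE 1.22, interval 0.13 to 5.96), and 4.90 and 9.72 CPM in DMSO. Without EnPGC-1 replicate 1 the log2 fold changes were 2.98 for Mt1 and 3.26 for Mt2, and without replicate 2 they were 2.30 and 2.80. Of 24 antioxidant and NRF2 genes tested, 14 were above 0 and the median was 0.07. Mt1 and Mt2 were the only 2 with an interval that left out 0, where 1.10% of all genes had one above 0. Hmox1, heme oxygenase, had 7.97 and 1.39 CPM against 2.06 and 2.31 CPM, so the SGC-CBP30 values lay between those of EnPGC-1.

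Metallothionein genes are known to be driven through metal response elements, with the core TGCACNC or TGCGCNC. The promoters of both genes are shown over 250 bases before to 50 bases after a RefSeq start (GRCm38.p6), which for Mt1 is a start inside the gene span given above and not its first base, with matches on either strand in capitals. The Mt1 window is chr8:94178839-94179138 and the Mt2 window chr8:94172368-94172667, both on the plus strand. The Mt1 window holds 3 matches and the Mt2 window 4, while 25.7% of 32851 promoters hold at least 1 and 1.97% hold 3 or more.
Mt1: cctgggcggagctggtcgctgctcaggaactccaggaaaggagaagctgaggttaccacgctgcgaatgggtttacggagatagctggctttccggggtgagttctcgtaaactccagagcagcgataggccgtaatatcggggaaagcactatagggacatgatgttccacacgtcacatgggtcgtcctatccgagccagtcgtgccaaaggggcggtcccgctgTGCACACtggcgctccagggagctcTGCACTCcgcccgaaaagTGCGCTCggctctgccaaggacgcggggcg
Mt2: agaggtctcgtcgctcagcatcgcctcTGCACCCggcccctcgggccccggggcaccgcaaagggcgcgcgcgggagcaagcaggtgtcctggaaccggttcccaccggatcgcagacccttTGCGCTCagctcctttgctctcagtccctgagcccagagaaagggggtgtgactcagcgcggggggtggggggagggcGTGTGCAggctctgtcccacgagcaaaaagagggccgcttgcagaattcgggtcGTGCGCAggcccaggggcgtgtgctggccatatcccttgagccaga

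Several other genes that lay above with EnPGC-1 were strongest in replicate 1. Uchl1, a ubiquitin hydrolase best known from neurons, had 14.2 and 4.81 CPM with EnPGC-1, against 1.29 and 1.85 CPM with SGC-CBP30 (log2 fold change 2.60, SE 0.60; DESeq2 adjusted p = 0.035; 1.62 without replicate 1 and 3.18 without replicate 2), and 1.62 and 1.44 CPM in DMSO. Perp, a p53 target in the plasma membrane, had 20.7 and 5.22 CPM against 1.99 and 3.08 CPM (2.35, SE 0.66), and its log2 fold change was 1.04 without replicate 1 and 3.03 without replicate 2. Asns (chr6:7675165-7693209), the asparagine synthetase of the ATF4 stress response, had 30.4 and 6.05 CPM against 4.05 and 3.54 CPM (2.26, SE 0.69), with 0.67 and 3.0 in those fits. In Perp and Asns, EnPGC-1 replicate 2 was nearer to the SGC-CBP30 libraries than to EnPGC-1 replicate 1, though still above them. For Uchl1 that held in CPM, while on the log2 scale replicate 2 was about midway. Cebpb, a transcription factor of the same response, was even between replicates, with 2.60 and 2.79 CPM against 1.23 and 1.04 CPM (1.24, SE 0.41). The 21 ATF4 and stress response genes tested divided into 11 above and 10 below 0, and 17 of 22 p53 targets were above 0, with medians of 0.00 and 0.13. Without EnPGC-1 replicate 1 or 2 the medians were 0.29 and -0.36 for the ATF4 list and 0.24 and 0.05 for the p53 list. Cdkn1a, the p53-induced inhibitor of the cell cycle, had 6.78 and 12.9 CPM against 4.88 and 3.86 CPM (1.17, interval -0.17 to 2.51).

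The remaining genes of the upper group were close between replicates. Rgs1, which dampens chemokine receptor signals, had 14.1 and 15.1 CPM with EnPGC-1, against 7.05 and 8.0 CPM with SGC-CBP30 (log2 fold change 0.95, SE 0.25). Prss12, an extracellular protease known as neurotrypsin, had 17.9 and 13.8 CPM against 7.6 and 7.31 CPM (1.08, SE 0.23). Both genes had DMSO levels near those with EnPGC-1 (15 and 22.1 CPM for Rgs1, 12.4 and 12.5 CPM for Prss12). The mitochondrial 12S ribosomal RNA mt-Rnr1 had 911 and 799 CPM against 489 and 301 CPM (1.11, SE 0.30). DMSO had 744 and 632 CPM, between the compounds, and Ctrl PIP had 431 and 349.6 CPM, within the range of SGC-CBP30. The 16S RNA mt-Rnr2, looked up after its values were known, had a log2 fold change of 0.62 (SE 0.22). These RNAs were counted in libraries selected for poly(A) tails, and the nuclear 18S ribosomal RNA gene Rn18s-rs5 was 0.20 higher in EnPGC-1 replicate 1 and 2.17 higher in replicate 2 than the SGC-CBP30 mean on the log2 scale. The part that ribosomal RNA left in the libraries plays in mt-Rnr1 was not tested.

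Genes below with EnPGC-1 had smaller log2 fold changes, and several were nearly identical between its replicates. Bcl2l11 (chr2:128126038-128162547), the death-promoting protein BIM, had 152 and 148 CPM with EnPGC-1, against 223 and 240.4 CPM with SGC-CBP30 (log2 fold change -0.63, SE 0.17, interval -1.03 to -0.23). DMSO had 164 and 165 CPM and Ctrl PIP 181 and 177 CPM, so the SGC-CBP30 libraries stood above all 6 others. Septin11, a cytoskeletal GTPase, had 68.0 and 68.9 CPM against 102 and 115 CPM (-0.66, SE 0.18), and here DMSO was at 102 and 115 CPM, so EnPGC-1 was the group that stood apart. Usp49, a deubiquitinase that acts on histone H2B, had 14.5 and 14.4 CPM against 24.1 and 25.1 CPM (-0.77, SE 0.20). Slfn9, of the Schlafen family, had 22.1 and 18.9 CPM against 32.8 and 40.9 CPM (-0.85, SE 0.20). Cxxc5, a CXXC zinc finger protein, had 14.3 and 14.1 CPM against 22.6 and 23.8 CPM (-0.71), and Slc5a3, the myo-inositol transporter, had 16.4 and 17.4 CPM against 26.0 and 25.9 CPM (-0.62). For Usp49, Slfn9 and Slc5a3 the DMSO libraries lay below SGC-CBP30, at 16.5 and 13.5 CPM for Usp49. An offset for transcript length and GC content gave log2 fold changes of -0.30 for Slc5a3 and -0.50 for Usp49. With it Bcl2l11 was at -0.52, Septin11 at -0.56, and Slfn9 and Cxxc5 each at -0.73. Among 16 tested genes of the BCL2 family, 11 were above 0 and the median was 0.10 (0.26 and -0.16 without EnPGC-1 replicate 1 or 2). Bcl2l11 was the 1 member whose interval left out 0, where 0.931% of all genes had one below 0.

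The lower group also held Gas2l3, Cit, Brca2, Xrcc3, Kif24 and Alms1. Gas2l3, a cytoskeletal protein of cell division, had 6.90 and 7.19 CPM with EnPGC-1, against 14.5 and 18.1 CPM with SGC-CBP30 (log2 fold change -1.21, SE 0.30). Cit (chr5:115845224-116008953), the citron kinase of cytokinesis, had 33.5 and 59.1 CPM against 89.1 and 111 CPM (-1.11, SE 0.29). Brca2, which acts in the repair of broken DNA, had 24 and 30.2 CPM against 42.0 and 64.3 CPM (-0.97, SE 0.27). Groups that did not overlap were a condition for choosing these genes. EnPGC-1 replicate 1 was the lowest of the 4 libraries for each. Xrcc3, a DNA repair protein, had 3.76 and 4.46 CPM against 6.98 and 8.92 CPM, Kif24, a centriolar kinesin, had 6.63 and 9.56 CPM against 13.5 and 21.3 CPM, and Alms1, a centrosome protein, had 10.4 and 13.2 CPM against 20.8 and 27.4 CPM (-1.03, SE 0.25). Mki67 (chr7:135689784-135716450), the marker of cycling cells Ki-67, had 384 and 673 CPM against 924 and 1228 CPM (-1.03, SE 0.32, interval -1.80 to -0.25). In DMSO it was at 679.5 and 628 CPM, so the SGC-CBP30 libraries were the higher ones for Mki67. Pole, the leading-strand DNA polymerase, had 51.1 and 82.6 CPM against 112 and 150.0 CPM (-0.97, SE 0.28), and Dnmt1, the maintenance DNA methyltransferase, had 253 and 382 CPM against 484 and 583 CPM (-0.75, SE 0.27). An offset for transcript length and GC content gave log2 fold changes of -0.69 for Cit, -0.63 for Brca2 and -0.68 for Alms1. With it Mki67 was at -0.62, Pole at -0.70, Dnmt1 at -0.55 and Gas2l3 at -1.03. Kif24 went from -1.10 to -0.94 and Xrcc3 from -0.95 to -0.97.

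As whole lists, cell cycle genes rested on EnPGC-1 replicate 1. All 46 DNA replication and nucleotide synthesis genes and all 40 mitosis genes were below 0, with medians of -0.39 and -0.55. Of these, 8 and 5 had both EnPGC-1 libraries below both SGC-CBP30 libraries, near the share of 14.7% among all genes. Set against the SGC-CBP30 mean, the mitosis genes had a median of -1.43 in EnPGC-1 replicate 1 and 0.04 in replicate 2, and the replication genes -1.07 and 0.04. The log2 fold change without EnPGC-1 replicate 1 had medians of 0.01 for mitosis and 0.04 for replication, and without SGC-CBP30 replicate 2 they were -0.25 and -0.21. Top2a, topoisomerase II of dividing cells, is an example, with 348 and 841 CPM with EnPGC-1, against 845 and 1207 CPM with SGC-CBP30. Glycolysis genes rested on that library in part. Of 25 tested, 23 were below 0, with a median of -0.41 that was -0.08 without EnPGC-1 replicate 1 and -0.99 without replicate 2. In 9 of them both EnPGC-1 libraries lay below both SGC-CBP30 libraries and in 1 both lay above, beside 14.7% and 13.2% of all genes. Without EnPGC-1 replicate 1, 16 were below 0 and 9 above. Gapdh, a glycolytic enzyme, had 483 and 1241 CPM against 1238 and 1388 CPM. Hk2, the inducible hexokinase, was lower in both libraries, with 12.8 and 18.2 CPM against 27.1 and 33.7 CPM (-0.97, interval -2.16 to 0.23), with 24.2 and 73.6 CPM in DMSO and 59.4 and 50.3 CPM in Ctrl PIP.

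**Figure D3:**
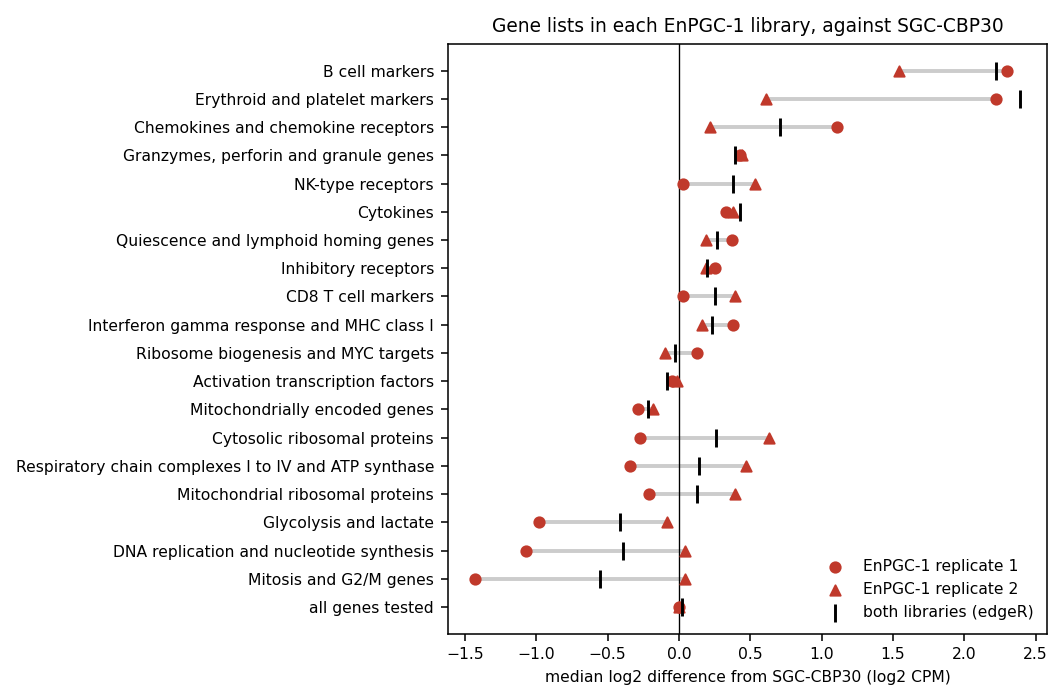
Median over the tested members of each list of the log2 CPM difference from the mean of the SGC-CBP30 libraries, separately for EnPGC-1 replicate 1 (circles) and replicate 2 (triangles), with the edgeR median of both libraries as a bar. Granule genes have 0.43 and 0.44 in the 2 libraries, while mitosis genes have -1.43 and 0.04 and cytosolic ribosomal proteins -0.27 and 0.63, on either side of 0.

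Ribosomal and mitochondrial lists pointed opposite ways in the EnPGC-1 libraries. Of 77 cytosolic ribosomal proteins 76 were above 0 with a median of 0.26, but 1 had both EnPGC-1 libraries above both SGC-CBP30 libraries (13.2% of all genes did). The median was 0.63 without EnPGC-1 replicate 1 and -0.28 without replicate 2. The 76 subunits of respiratory complexes and ATP synthase had a median of 0.14, with 0.47 and -0.35 in the same fits, and the 78 mitochondrial ribosomal proteins 0.13, with 0.39 and -0.21. The 36 proteasome subunits had 0.06, with 0.34 and -0.28. The trend on transcript length had opposite signs in the EnPGC-1 libraries, and its part in these lists was tested only by an offset for transcript length and GC content, with which the medians were 0.12 for cytosolic ribosomal proteins, 0.01 for the respiratory chain, 0.08 for mitochondrial ribosomal proteins and -0.03 for the proteasome. Cox7a2l, an assembly factor of respiratory supercomplexes, had the smallest p among the respiratory genes, with 406 and 489 CPM with EnPGC-1, against 367 and 276 CPM with SGC-CBP30 (log2 fold change 0.47, interval -0.07 to 1.02).

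**Figure D4:**
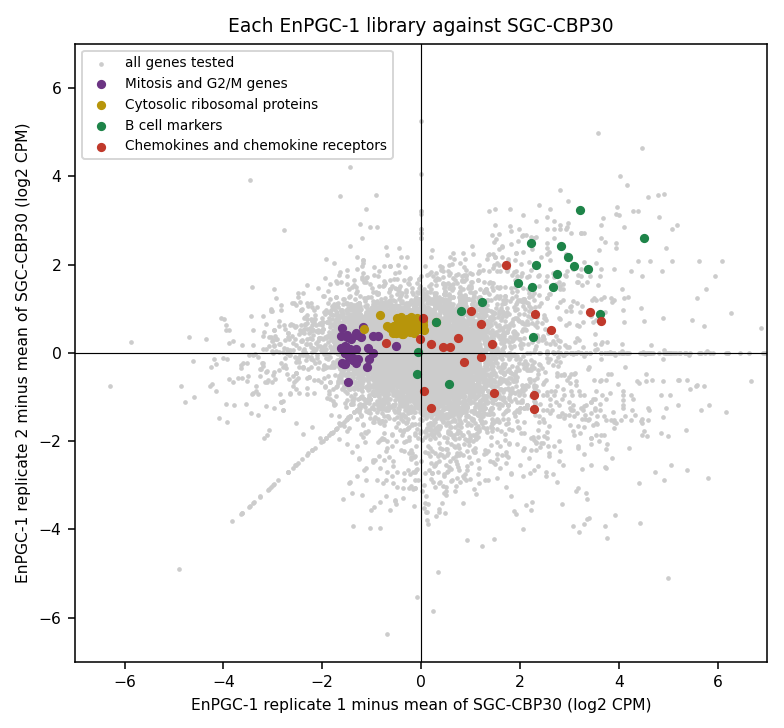
Log2 CPM of each tested gene minus the mean of the SGC-CBP30 libraries, for EnPGC-1 replicate 1 (horizontal) and EnPGC-1 replicate 2 (vertical); 11 genes beyond 7 on either axis are not drawn. B cell markers (green) lie mostly in the upper right, where both libraries are higher, mitosis genes (purple) left of 0 near the horizontal axis, and cytosolic ribosomal proteins (gold) mostly above and left of 0.

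Genes tied to the study's interest in mitochondria were mostly not resolved between the compounds. Ppargc1a (chr5:51454249-52115853) had 74 and 10 counts with EnPGC-1, against 0 and 3 counts with SGC-CBP30. The summed rates had a ratio of 31.8 (95% exact interval 10.5 to 157, counting error only), while the edgeR interval, which includes the spread between libraries, ran from -0.95 to 11.00 around a log2 fold change of 5.03. Most of the EnPGC-1 counts came from replicate 1, and the level was at most 1.80 CPM. The log2 fold change was 2.63 without EnPGC-1 replicate 1 and 5.88 without EnPGC-1 replicate 2, and without SGC-CBP30 replicate 2 no SGC-CBP30 count is left to set a fold against. Ppargc1b, its close relative, had 32.5 and 10 CPM with EnPGC-1, and 17.4 and 14.5 CPM with SGC-CBP30 (0.42, interval -1.09 to 1.92). Pprc1, the third member, had 60.4 and 29.9 CPM against 36.3 and 33.6 CPM (0.37, interval -0.42 to 1.16). In both, the SGC-CBP30 values lay between the EnPGC-1 values. Tfam, which packages and transcribes mitochondrial DNA, had 60.0 and 82.9 CPM against 60.1 and 66.5 CPM (0.17, interval -0.73 to 1.07). Of the 24 regulators of mitochondrial biogenesis tested (29 listed), 13 were above 0 and 11 below, with a median of 0.01. Mterf3, a negative regulator of mitochondrial transcription, was the 1 member whose interval left out 0 (32.1 and 29.7 CPM against 23.5 and 21.3 CPM, log2 fold change 0.47, interval 0.03 to 0.90). Over all genes, 1.10% had an interval above 0.

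Of 13 messages encoded in mitochondrial DNA 12 lay below 0, and the median was -0.22. The direction rested on SGC-CBP30 replicate 2, without which 8 were above 0 and 5 below with a median of 0.06, while the median was -0.51 without SGC-CBP30 replicate 1. CYTB, cytochrome b, had 1915 and 2286 CPM with EnPGC-1, against 2286 and 3223 CPM with SGC-CBP30 (log2 fold change -0.39, interval -1.04 to 0.26), and COX1, a cytochrome oxidase subunit and the 1 member above 0, had 12854 and 11545 CPM against 9356 and 11149.8 CPM (0.25, interval -0.45 to 0.95). The summed levels overlapped, at 26376 and 26268 CPM with EnPGC-1 and 23357 and 30488 CPM with SGC-CBP30. Cpt1a, which commits fatty acids to mitochondrial oxidation, had 154 and 170.1 CPM against 153 and 155 CPM (0.07, interval -0.77 to 0.92). Ctrl PIP was at 90.3 and 82.9 CPM and DMSO at 145 and 66.1 CPM, so for Cpt1a both compounds lay above the other 4 libraries. The 36 fatty acid oxidation genes had 18 above and 18 below 0, with a median of -0.01, but the EnPGC-1 libraries pointed opposite ways: 26 were above 0 without EnPGC-1 replicate 1 (median 0.19) and 6 without replicate 2 (median -0.23). The 29 genes of the TCA cycle and pyruvate entry had a median of -0.05 (0.09 and -0.20 in the same fits), and Pcx, pyruvate carboxylase, had 5.12 and 5.77 CPM against 7.93 and 10.6 CPM (-0.76, interval -1.44 to -0.09).

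The targets of SGC-CBP30 were read at the level of their own messages, which does not report inhibition of the proteins. Crebbp, which encodes CBP, had 149 and 60.0 CPM with EnPGC-1, against 156 and 112 CPM with SGC-CBP30 (log2 fold change -0.36, interval -1.93 to 1.21), and Ep300, which encodes p300, had 216 and 77.9 CPM against 205 and 167 CPM (-0.34, interval -2.02 to 1.33). In both, EnPGC-1 replicate 2 was below the SGC-CBP30 libraries and replicate 1 was not. The 16 lysine acetyltransferases had a median of -0.17, which was -0.44 without EnPGC-1 replicate 1 and 0.13 without replicate 2. Among 31 bromodomain genes, with a median of -0.10 (-0.36 and 0.18 in the same fits), Atad2, a bromodomain ATPase of proliferating cells, had 106 and 120.3 CPM against 152 and 206 CPM (-0.67, SE 0.22, interval -1.19 to -0.14). Its groups did not overlap. The 18 histone deacetylases and sirtuins were divided, 9 above and 9 below 0, and Hdac6 had the smallest p, with 19.1 and 26.6 CPM against 30.3 and 35.7 CPM (-0.53, interval -1.07 to 0.01).

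No gene in the lists of T cell activation, costimulation, receptor signalling and fate had an interval that left out 0. Myc, the transcription factor of cell growth, had 97.8 and 85.9 CPM with EnPGC-1, against 71.1 and 62.9 CPM with SGC-CBP30 (log2 fold change 0.45, interval -0.11 to 1.02). The 4 values lay below DMSO (147 and 208 CPM) and Ctrl PIP (153 and 124 CPM). Irf4, a transcription factor scaled to receptor signalling, had 24.6 and 38.7 CPM against 40.1 and 39.6 CPM (-0.33, interval -1.10 to 0.43), again below DMSO at 52.8 and 88.4 CPM. Tcf7, the transcription factor of stem-like T cells, had 2112 and 1808 CPM against 1943 and 1834 CPM (0.05, interval -0.73 to 0.84). The 29 activation transcription factors had a median of -0.08, the 24 fate transcription factors -0.01 (-0.37 and 0.14 without EnPGC-1 replicate 1 or 2), the 20 costimulatory receptors 0.08 and the 26 genes of the T cell receptor complex and its signalling 0.11. Against DMSO the activation transcription factors had medians of -0.40 with EnPGC-1 and -0.56 with SGC-CBP30, and ribosome biogenesis genes -0.64 and -0.69, with the DMSO libraries shared; between the compounds the 36 ribosome biogenesis genes had a median of -0.03. The CD8+ T cell marker list had 11 of 12 members above 0 with a median of 0.25 (0.39 and 0.02 without EnPGC-1 replicate 1 or 2), and Lat, an adaptor of receptor signalling, had 372 and 467 CPM against 304 and 244 CPM (0.62, interval -0.07 to 1.30). The CD4 and regulatory T cell list had a median of 0.06 (-0.33 without EnPGC-1 replicate 1) and the natural killer cell marker list 1.37 over 8 members, 0.11 and 0.62 without EnPGC-1 replicate 1 or 2.

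The remaining metabolic and stress lists had medians near that of all genes over both EnPGC-1 libraries, and the sign depended on the library. The median was 0.05 for 18 amino acid transporters (-0.22 without EnPGC-1 replicate 1 and 0.18 without replicate 2). In the same order it was -0.02 for 32 cholesterol and fatty acid synthesis genes (0.01 and -0.28), -0.02 for 28 genes of the unfolded protein response (0.16 and -0.19) and -0.04 for 20 aminoacyl-tRNA synthetases (0.07 and -0.11). Acaca, the acetyl-CoA carboxylase that starts fatty acid synthesis, had 49.1 and 33.9 CPM with EnPGC-1, against 60.8 and 67.8 CPM with SGC-CBP30 (log2 fold change -0.63, interval -1.21 to -0.05). Its groups were apart, with DMSO at 78.6 and 61.5 CPM. Slc7a11, the cystine transporter, had 5.44 and 0 CPM against 0.0552 and 0.149 CPM, a value that came from EnPGC-1 replicate 1 alone.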

How the data were processed

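Poly(A)-selected RNA was sequenced from 8 libraries, and the authors deposited whole-number counts per gene for 45777 Entrez IDs, 1 column per library. They also deposited regularized log2 values (rlog) of 16442 genes, used in 1 alternative. Per the submitters' processing notes, HISAT2, StringTie, DESeq2 and mm10 were used, in roles not given. The sources used here name no counter, strand setting or annotation, so overlapping genes and near-identical copies may share counts. There were 0 columns of other samples. Symbols came from a RefSeq table on GRCm38.p6 (99.8% of IDs matched).

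Counts were tested with edgeR 4.0.16 (R 4.3.3): TMM, filterByExpr by group, glmQLFit with robust estimation and glmQLFTest, group means of all 8 libraries, two-sided, Benjamini-Hochberg over 16750 genes at 0.05, with 4 residual degrees of freedom. CPM is scaled by TMM library sizes. The SE is the log2 fold change divided by the root of F. Differences from the SGC-CBP30 mean used log2 CPM with a prior count of 2. The test was run on simulated counts drawn independently around a shared mean per gene, apart from the genes set to change. These counts had no length trend and no spread of their own per group. The check therefore does not cover those features of the libraries. Totals were 38890043 to 55491261 counts per library, and intervals of counts cover counting error only.

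The members and the 41 gene lists were chosen with earlier results of these data known, and lists were described by counts and medians, without a test. Named genes were 16 fixed genes, up to 12 per direction with the smallest p (at least 5 CPM in the higher group, no overlap, no clone-type symbol), up to 8 per direction called by DESeq2 1.42.0 on the same conditions, and the 3 smallest-p members of each list. Other genes were chosen after their values were seen. Some genes that the rule names are not reported here. Alternatives were DESeq2's Wald test, its size factors, no filter, a replicate block, the 4 libraries alone, limma 3.58.1 on rlog values, offsets for length and GC content (mgcv 1.9.3), those offsets with the block, and each of the 4 libraries left out.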

Additional observations from a re-analysis of the deposited data

How the results depend on the processing

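The count of genes called by edgeR was 0 under each edgeR and limma alternative, including the fits without 1 library (0 to 0), and 17 with DESeq2's Wald test, 15 higher and 2 lower; the cause was not tested. At an unadjusted p under 0.05 the alternatives gave 78 to 427 higher genes and 24 to 534 lower ones, with 427 and 534 without EnPGC-1 replicate 2, 119 and 88 without SGC-CBP30 replicate 1, and 78 and 24 without SGC-CBP30 replicate 2. None of the 24 genes with the smallest p changed sign. They were chosen for small p and for groups that did not overlap, so leaving out 1 library could hardly reverse them. Signs changed in 19 of 147 named genes. Over the fits without 1 library the log2 fold changes ranged from -0.66 to 1.03 for Ppargc1b, -0.23 to 0.78 for Pprc1, -0.81 to 2.29 for Foxp3, -0.06 to 0.16 for Tcf7, -0.24 to 2.32 for Csf1, -0.53 to 2.53 for Havcr2, -0.86 to 1.79 for Zeb2, -5.41 to 5.70 for Slc7a11, -0.65 to 1.86 for Hmox1 and -1.01 to 1.57 for Lrrc32, each lowest without EnPGC-1 replicate 1. They ranged from -0.37 to 0.19 for Pdcd1, -0.08 to 0.39 for Tfam, -0.08 to 0.73 for Uqcrh, -0.01 to 0.67 for Fas, -0.07 to 0.61 for Psmb10, -0.00 to 0.15 for Cpt1a and 0.00 to 5.28 for Klra8, each lowest without EnPGC-1 replicate 2. They ranged from -1.16 to 0.15 for Crebbp, -1.26 to 0.21 for Ep300, -0.48 to 0.01 for Iars and 0.00 to 7.72 for Ncr1, each lowest without EnPGC-1 replicate 1. The Klra8 and Ncr1 values rest on 5 and 22 counts in 1 EnPGC-1 library against 0 with SGC-CBP30. They are not to be read as sizes of a difference. Wdr12 was at 0.09 with the length and GC offset and at 0.01 with the offset and the block. Of 492 list medians 51 changed sign, 13 without EnPGC-1 replicate 1 and 12 without replicate 2. With the replicate number as a block, 0 genes were called and 233 higher and 188 lower genes had an unadjusted p under 0.05; same-numbered deviations of the 2 compounds correlated at 0.23, and the labels do not say what a number shares. With 2 libraries per group, the 95% interval of the median gene extended 0.997 log2 units either way, before adjustment. Larger differences were not thereby detectable: Mt1, at 2.68, did not pass the adjusted threshold in edgeR.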

Other observations

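Several of the genes that DESeq2 called were counted in 1 of the 4 libraries compared. Acta2, smooth muscle actin, had 393 and 0 counts with EnPGC-1, against 0 and 0 with SGC-CBP30. The X-linked homeobox gene Rhox5 had 514 and 0 counts against 0 and 0, Timd2 had 385 and 0 against 0 and 0, and Trap1a had 300 and 0 against 0 and 0. The uncharacterized transcript E130102H24Rik had 291 and 0 counts against 0 and 0. In the other direction Pakap had 0 and 0 counts with EnPGC-1, against 0 and 426 with SGC-CBP30, and Gm7030 had 0 and 0 against 334 and 0. Outside the comparison, Rhox5, Timd2 and Trap1a were also counted in DMSO replicate 1 (1.85, 1.52 and 0.523 CPM) and in none of DMSO replicate 2 and the Ctrl PIP libraries. Acta2 was counted in all 4 of those libraries (1.83 and 0.217 CPM in DMSO, 0.240 and 0.212 CPM in Ctrl PIP), and E130102H24Rik in 3 of them (0 and 1.74 CPM in DMSO, 2.18 and 2.83 CPM in Ctrl PIP). Pakap had 1.96 CPM in DMSO replicate 2 and Gm7030 6.21 CPM in Ctrl PIP replicate 2, and each was at 0 in the other 3. Anxa3, an annexin, had 58 and 14 counts with EnPGC-1 and 0 and 0 with SGC-CBP30, the peptide transporter Slc15a1 had 48 and 24 against 0 and 0, and the immunoglobulin light chain segment Iglv1 had 33 and 18 against 0 and 0.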
